A study of Homo sapiens with 8 samples.

Results

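The genes described here carry out the attachment of NEDD8 to cullin ubiquitin ligases, with 1 substrate receptor. They are NEDD8 itself, NAE1 and UBA3 of the activating enzyme, the conjugating enzymes UBE2M and UBE2F, the RING protein RBX1, the cullin scaffolds CUL1, CUL3 and CUL4A, and the receptor ASB2. They were taken by gene name from the deposited tables, and all 10 were found among the 16383 genes of the count table. The set was put together with the fold changes of these same libraries known, among them those of NEDD8 and ASB2. All values comparing the groups are therefore descriptions of these 10 genes and carry no test.

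NEDD8 is a small protein of the ubiquitin family. An activating enzyme made of NAE1 and UBA3 charges it, UBE2M or UBE2F takes it over, and a RING protein helps to place it on a lysine of a cullin. A cullin carrying NEDD8 is the active form of its ubiquitin ligase, which marks proteins for destruction by the proteasome, and the COP9 signalosome takes NEDD8 off again.

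Total RNA was sequenced from MDA-MB-231, a human triple-negative breast cancer cell line grown in DMEM with 10% fetal bovine serum. Cells received 5 µM cyclic di-GMP (c-di-GMP), a bacterial second messenger, or its vehicle, PBS, for 24 h. There were 4 libraries of each group. The title of the series names PSMD3, a subunit of the proteasome's regulatory particle, and STING, a sensor of cyclic dinucleotides, beside suppression of metastasis. All groups came from 1 cell line, nothing records separate cultures, and the spread between libraries of a group may thus be technical.

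Libraries held between 16151360 and 18040010 counts over the listed genes. Vehicle replicate 3 stood apart. Its log2 CPM (counts scaled to library size) correlated across genes with those of the other libraries at r between 0.860 and 0.876, against 0.988 to 0.994 for the 21 pairs among the other 7, and 465 listed genes had no count in it, against 2 to 9 elsewhere. Levels below are CPM after TMM scaling, in which vehicle replicate 3 had a factor of 0.664 and the others 1.05 to 1.07. Fold changes of the 10 genes are therefore given with and without vehicle replicate 3. Those of single genes in the lists of other pathway genes are mostly given without it, and some turned in direction with all 8 libraries. All 10 mesenchymal markers of this cell line were listed, SPARC at only 0.16 to 0.97 CPM in the 7 other libraries, with summed levels of 5226 to 5318 CPM in vehicle and 5295 to 5317 CPM in c-di-GMP libraries. In vehicle replicate 3 that sum held more VIM, at 2198 CPM against 607 to 766 CPM elsewhere, and less MSN, at 231 CPM against 1025 to 1078 CPM. Of 10 luminal markers 7 were listed (ESR1, PGR and FOXA1 were not), at 1299 to 1392 CPM in vehicle replicates 1, 2 and 4, 3726 CPM in vehicle replicate 3 and 1269 to 1298 CPM with c-di-GMP. Of 5 fibroblast markers 4 were listed, at 29.1 to 33.8, 6.70 and 25.5 to 27.8 CPM in the same order, and of 5 leukocyte markers none was listed. Most of the luminal sum was KRT8, KRT18 and KRT19, at 1565, 651 and 1416 CPM in vehicle replicate 3. Elsewhere they were at 655 to 698, 248 to 279 and 300 to 390 CPM. EPCAM, at 58.8 CPM, and GATA3, at 24.7 CPM, were also higher in vehicle replicate 3 than elsewhere. ERBB3, at 9.30 CPM, was within the range of the other libraries, and CDH1, at 1.61 CPM, was below it.

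Promoter letters were read for all 10 genes from RefSeq windows of GRCh38.p14, 250 bases upstream of each start. The runs below come from NEDD8 and ASB2, the 2 genes that differed most between the groups without vehicle replicate 3, and capitals mark the match to a motif.
NEDD8, chr14:24232368-24232397, minus strand: gggggtggagccagacagtgacCCGGAAGt
ASB2, chr14:93976760-93976789, minus strand: aaatgatgacatCACGTGagggccaaagct

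The NEDD8 run ends at the RefSeq start, and its match to the ETS core CCGGAAG lies 8 to 2 bases upstream of that start. Of all 35116 windows, 8.5175% hold those letters on either strand. In the ASB2 run the E-box CACGTG lies 207 to 202 bases upstream of the first RefSeq start, and 6.3447% of windows hold it. RBX1 also held CACGTG, 117 to 112 bases upstream, and 1 of the 4 CUL4A windows held CCGGAAG, 77 to 71 bases upstream on the opposite strand. The other motifs searched, on both strands, were the SP1 GC box (GGGCGG), the core of the xenobiotic response element (GCGTG), the AP-1 site (TGANTCA), the CCAAT box (CCAAT), the TATA box (TATAAA), the CREB site (TGACGTCA) with its shorter form (TGACG), and the NRF1 motif by name. The shorter CREB form lies within the longer one. The NEDD8 window held 5 matches in all, the others to the SP1 GC box, the CCAAT box and the shorter CREB form. Of all windows, 42.6%, 32.0% and 21.2% hold these. The first ASB2 window held only its E-box. Matches of the other genes to these further motifs are not reported here. A match is a description of the letters and shows neither a binding site nor a cause. Both printed runs lie inside the GENCODE 29 extent of their genes.

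NEDD8, the modifier, was higher in every c-di-GMP library than in vehicle replicates 1, 2 and 4, and far higher still in vehicle replicate 3. It lies on chromosome 14, from 24216852 to 24232454 on the minus strand (GRCh38). Vehicle replicates 1, 2 and 4 gave 25.6, 24.7 and 23.9 CPM, and the c-di-GMP libraries gave 34.9, 34.8, 35.0 and 36.9 CPM. Vehicle replicate 3 gave 313 CPM. Without that library the means were 24.7 ± 0.83 (SD, n = 3) and 35.4 ± 1.04 CPM (SD, n = 4), a ratio of 1.43 and a log2 fold change of 0.51 ± 0.06 (SE). With all 8 libraries the log2 fold change was -1.45 ± 0.90 (SE), so the sign of the NEDD8 difference was set by 1 library. In bulk RNA, fewer cells with a transcript and less of it per cell cannot be told apart.

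Reads behind NEDD8 numbered 444 to 688 in 7 libraries and 3506 in vehicle replicate 3. GMPR2, an enzyme of purine salvage that starts head to head with NEDD8, shares 33 exon bases with it on the opposite strand. GMPR2 gave 55.7, 56.9 and 54.6 CPM in vehicle replicates 1, 2 and 4 and 58.8, 56.1, 58.2 and 59.2 CPM with c-di-GMP. Its groups overlapped, and its value in vehicle replicate 3 was 73.8 CPM. The read-through gene NEDD8-MDP1 shares 488 bases (12.58%) of the NEDD8 exons. It was listed in neither the count nor the FPKM table, so it had no level of its own here.

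**Figure D1:**
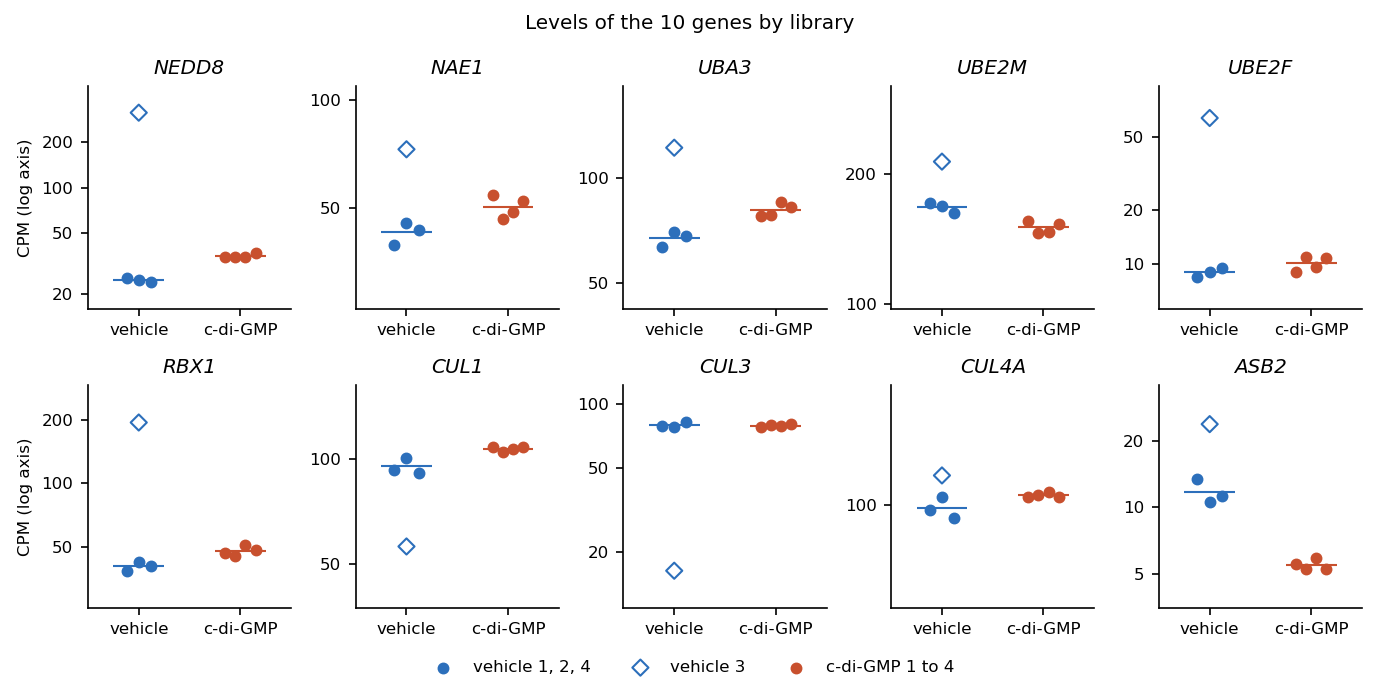
Level of each of the 10 genes in CPM (log axis) in the 8 libraries, with filled points for vehicle replicates 1, 2 and 4 and for c-di-GMP replicates 1 to 4, an open diamond for vehicle replicate 3, and lines at the means of the filled points. ASB2 is lower in all 4 c-di-GMP libraries than in all 4 vehicle libraries, while the diamond lies far above the other points for NEDD8, UBE2F and RBX1 and far below them for CUL3.

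Both subunits of the NEDD8-activating enzyme were slightly higher with c-di-GMP. NAE1, the regulatory subunit (chromosome 16, 66802875 to 66873256, minus strand), gave 39.5, 45.6 and 43.5 CPM in vehicle replicates 1, 2 and 4 and 54.4, 46.6, 48.9 and 52.4 CPM in the c-di-GMP libraries. UBA3, the catalytic subunit (chromosome 3, 69054730 to 69080408, minus strand), gave 63.4, 70.0 and 68.2 CPM and 77.8, 78.0, 85.4 and 82.4 CPM. Neither pair of groups overlapped, although the highest vehicle and lowest c-di-GMP values of NAE1 were close. Vehicle replicate 3 was higher than every other library for both genes, at 73.0 CPM for NAE1 and 122 CPM for UBA3.

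Log2 fold changes over 7 libraries were 0.23 ± 0.06 (SE) for NAE1 and 0.26 ± 0.05 for UBA3, and with all 8 they were 0.01 ± 0.20 and 0.00 ± 0.22. Without TMM scaling, vehicle replicate 3 came to 48.4 CPM for NAE1 and 80.7 CPM for UBA3. All 4 vehicle libraries were then below all 4 c-di-GMP libraries for both subunits. The balance of the subunits, as the ratio of UBA3 to NAE1 in FPKM (reads scaled to gene length and depth), which does not depend on depth, was 1.84 ± 0.0423 (SD, n = 3) in vehicle replicates 1, 2 and 4 and 1.88 ± 0.160 (SD, n = 4) with c-di-GMP. These ratios overlapped, and vehicle replicate 3, at 1.95, lay within the range of the c-di-GMP libraries.

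The conjugating enzymes differed from each other in level and in behaviour. UBE2M, which serves CUL1 to CUL4 through RBX1 (chromosome 19, 58555712 to 58558960, minus strand), gave 171, 169 and 163 CPM in vehicle replicates 1, 2 and 4 and 156, 146, 147 and 153 CPM with c-di-GMP. Its c-di-GMP values all lay below the vehicle values, and vehicle replicate 3 was highest at 214 CPM. Over 7 libraries its log2 fold change was -0.16 ± 0.04 (SE), and over 8 it was -0.25 ± 0.12. The sign turned, to a log2 fold change of 0.20 ± 0.04 (SE), when each library's trend with GC content was taken out.

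UBE2F, which serves CUL5 through RNF7 (chromosome 2, 237966827 to 238042782, plus strand), was read little, at 155 to 202 counts outside vehicle replicate 3. It gave 8.55, 9.03 and 9.59 CPM in vehicle replicates 1, 2 and 4 and 9.07, 10.9, 9.71 and 10.8 CPM with c-di-GMP. The groups overlapped, with a log2 fold change of 0.16 ± 0.10 (SE). Vehicle replicate 3 held 63.7 CPM, which made the log2 fold change over 8 libraries -1.16 ± 0.69. UBE2F shares 688 exon bases (16.23%) with the read-through gene UBE2F-SCLY, listed in neither the count nor the FPKM table. Its pseudogene UBE2FP1 was listed at 7 to 16 counts outside vehicle replicate 3, where it had none. Reads of such copies may be split between them.

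In FPKM, UBE2M exceeded UBE2F by a factor of 46.3, 43.3 and 39.2 in vehicle replicates 1, 2 and 4 and by 39.8, 30.9, 35.0 and 32.6 in the c-di-GMP libraries. The ranges overlapped through c-di-GMP replicate 1. In vehicle replicate 3 the factor was 7.77.

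RBX1, the RING subunit that brings the charged enzyme to CUL1 to CUL4 (chromosome 22, 40951347 to 40973309, plus strand), was modestly higher with c-di-GMP. It gave 38.6, 42.3 and 40.8 CPM in vehicle replicates 1, 2 and 4, 194 CPM in vehicle replicate 3, and 46.8, 45.2, 50.9 and 48.4 CPM in the c-di-GMP libraries. The groups did not overlap without vehicle replicate 3, and that library exceeded all others. Its log2 fold change was 0.23 ± 0.06 (SE) over 7 libraries and -0.72 ± 0.55 over 8.

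Of the cullins, only CUL1 was separated between the groups in CPM. CUL1, the scaffold of SCF ligases (chromosome 7, 148697914 to 148801036, plus strand), gave 93.4, 101 and 91.4 CPM in vehicle replicates 1, 2 and 4 and 109, 105, 107 and 108 CPM with c-di-GMP. Vehicle replicate 3 was lowest at 56.2 CPM, so that the groups did not overlap with all 8 libraries either. The log2 fold change was 0.16 ± 0.05 (SE) over 7 and 0.32 ± 0.18 over 8 libraries. An antisense gene, AC005229.4, covers 385 bases (10.85%) of the CUL1 exons and was listed at 1.10 to 2.68 CPM.

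CUL3, the scaffold that works with BTB proteins (chromosome 2, 224470150 to 224585397, minus strand), was level between the groups outside vehicle replicate 3. It gave 78.7, 78.3 and 82.0 CPM in vehicle replicates 1, 2 and 4 and 77.8, 79.5, 78.8 and 80.3 CPM with c-di-GMP. In vehicle replicate 3 it was at 16.3 CPM, or 20.4% of the mean of the other vehicle libraries. The log2 fold change was -0.01 ± 0.05 (SE) without that library and 0.31 ± 0.44 with it.

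CUL4A, the scaffold that works with DDB1 and the DCAF receptors (chromosome 13, 113208193 to 113267108, plus strand), gave 97.9, 104 and 94.4 CPM in vehicle replicates 1, 2 and 4 and 103, 104, 106 and 104 CPM with c-di-GMP. Vehicle replicate 2 lay within the c-di-GMP range, and the log2 fold change was 0.08 ± 0.04 (SE) over 7 libraries and 0.03 ± 0.10 over 8. Vehicle replicate 3 gave 114 CPM with TMM scaling and 75.7 CPM without it, so that its place above or below the other libraries depended on the scaling. For UBE2M the same change of scale took it from 214 to 142 CPM, likewise from the top to the bottom. PCID2, which overlaps CUL4A on the opposite strand by 437 exon bases, was at 38.6 to 41.0 CPM in 7 libraries and 66.0 CPM in vehicle replicate 3.

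Ratios between the cullins, free of depth, differed between the groups by small amounts. CUL1 over CUL3 in FPKM was 3.84, 4.19 and 3.62 in vehicle replicates 1, 2 and 4 and 4.52, 4.27, 4.40 and 4.36 with c-di-GMP. CUL1 over CUL4A was 2.14 ± 0.0246 (SD, n = 3) and 2.27 ± 0.0554 (SD, n = 4). Neither ratio overlapped between the groups without vehicle replicate 3, in which they were 11.2 and 1.09. NEDD8 over UBA3 was 0.427, 0.374 and 0.371 in vehicle replicates 1, 2 and 4, 2.73 in vehicle replicate 3, and 0.475, 0.472, 0.433 and 0.475 with c-di-GMP. This ratio was thus higher with c-di-GMP than in vehicle replicates 1, 2 and 4, by a small margin in c-di-GMP replicate 3, and lower than in vehicle replicate 3.

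ASB2 had the largest difference of the 10 and the only one of more than 2-fold without vehicle replicate 3. It encodes an ankyrin-repeat protein with a SOCS box that serves as a substrate receptor of CUL5 ligases and is known for directing filamins to destruction (chromosome 14, 93934153 to 93976791, minus strand). The vehicle libraries 1 to 4 gave 13.4, 10.5, 23.8 and 11.3 CPM, and the c-di-GMP libraries gave 5.56, 5.25, 5.87 and 5.26 CPM. Every c-di-GMP library lay below every vehicle library, with or without vehicle replicate 3.

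In counts, ASB2 held 251, 202, 266 and 209 reads in the vehicle libraries and 95, 96, 110 and 98 with c-di-GMP. Without vehicle replicate 3 the means were 11.7 ± 1.49 and 5.49 ± 0.294 CPM (SD, n = 3 and 4), a ratio of 0.467. The log2 fold change was -1.10 ± 0.11 (SE) over 7 and -1.42 ± 0.27 over 8 libraries. Unlike that of NEDD8, the sign was the same in both. The antisense gene AL132642.1 covers 48 exon bases of ASB2 and was listed in the FPKM table only.

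**Figure D2:**
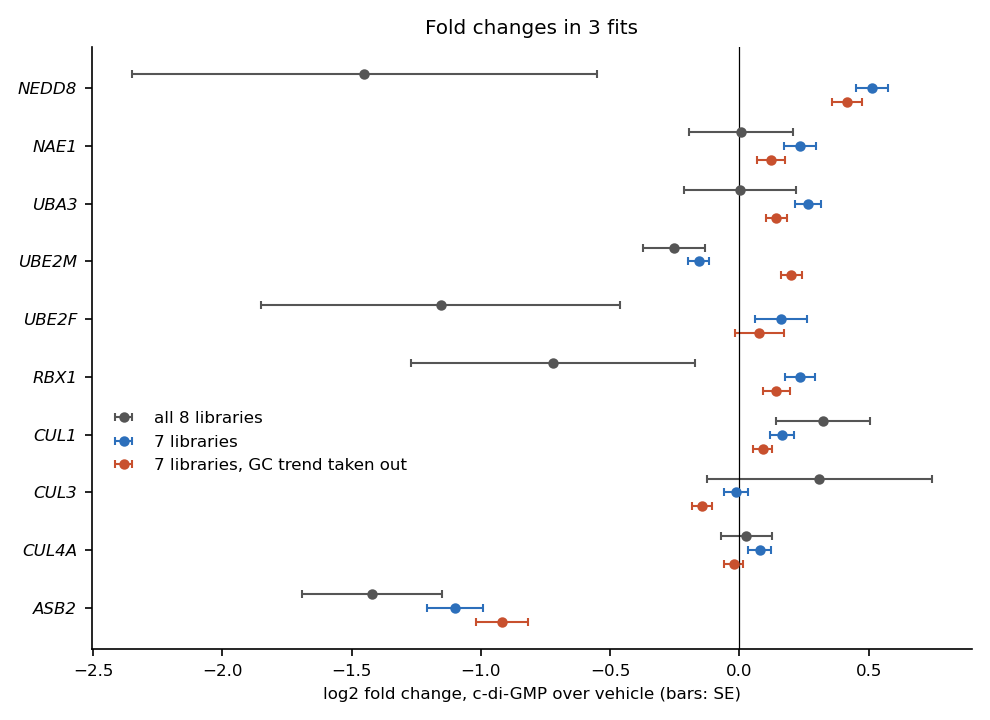
Log2 fold change of c-di-GMP over vehicle for each of the 10 genes, with the standard error as a bar, fitted on all 8 libraries, on the 7 without vehicle replicate 3, and on those 7 with the GC trend taken out. ASB2 is below 0 in all 3 fits, NEDD8 moves from -1.45 with 8 libraries to 0.51 with 7, and UBE2M moves from -0.16 to 0.20 when the GC trend is taken out.

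Across all genes, the fit of 8 libraries with edgeR called 0 of 15415 genes at an adjusted p under 0.05 (0.0%), with 960 at an unadjusted p under 0.05. DESeq2 called 106 of 11321 genes (0.936%), with ASB2 as the only one of the 10 called and no adjusted p for NEDD8, UBE2F and RBX1, and limma-voom with library quality weights called 5430 (35.2%), among them 6 of the 10 as higher and 2 as lower. Without vehicle replicate 3, edgeR called 4633 of 15647 genes (29.6%), of which 2106 (13.5%) were higher and 2527 (16.2%) lower. Of the 10 genes, 5 were called higher (NEDD8, NAE1, UBA3, RBX1 and CUL1) and 2 lower (UBE2M and ASB2). Every call among the 10 genes, here and below, describes a set picked with this contrast known and is no test of it. With the GC trend taken out, 2378 genes (15.2%) were called, 1342 (8.58%) higher and 1036 (6.62%) lower, and of the 10 genes NEDD8, UBA3 and UBE2M were called higher and CUL3 and ASB2 lower.

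Groups did not overlap without vehicle replicate 3 for 7 of the 10 genes, where 35.7% of all genes had that separation. They did not overlap with all 8 libraries for UBE2M, CUL1 and ASB2, where 14.2% of all genes did so. The 10 genes were picked on this contrast, and nothing is read from these shares. Their median log2 fold change was 0.16 with 7 libraries and -0.12 with 8, where that of all genes was 0.00 and -0.05.

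Per gene length, the order of levels ran from UBE2M, at 90.4 ± 2.50 FPKM (SD, n = 3) in vehicle replicates 1, 2 and 4, to UBE2F, at 2.11 ± 0.120 FPKM. Next to UBE2M stood CUL1 at 26.5 ± 1.46, UBA3 at 16.2 ± 0.819 and RBX1 at 13.0 ± 0.589 FPKM. RBX1 overlapped with CUL4A, at 12.4 ± 0.605 FPKM. Below them came NAE1 at 8.81 ± 0.642, CUL3 at 6.84 ± 0.162 and NEDD8 at 6.30 ± 0.218 FPKM. ASB2, at 2.30 ± 0.293 FPKM, overlapped with UBE2F. The deposited lengths are of merged exons of all transcripts, 3879 bases for NEDD8, whose longest coding transcript has 708, so that a short transcript in a long gene model is understated on this scale.

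Vehicle replicate 3 departed from the other vehicle libraries in an order that largely followed transcript length. NEDD8 was 12.7-fold, UBE2F 7.04-fold and RBX1 4.78-fold higher in it than the mean of vehicle replicates 1, 2 and 4, and ASB2 was 2.03-fold higher. Without TMM scaling these values were 7.92-fold, 4.40-fold, 2.99-fold and 1.27-fold. UBA3, NAE1, UBE2M and CUL4A were 1.81-fold, 1.70-fold, 1.28-fold and 1.16-fold higher, though UBE2M and CUL4A were lower without TMM scaling, at 142 and 75.7 CPM, while CUL1 was at 59.0% and CUL3 at 20.4% of that mean. Without that scaling UBA3 and NAE1 were 1.13-fold and 1.07-fold higher, and CUL1 and CUL3 were at 36.9% and 12.8%. The longest coding transcript has 708 bases for NEDD8, 1188 for RBX1, 3064 for CUL1, 5666 for CUL4A and 6741 for CUL3. UBE2F, with 2135 bases, had a log2 ratio of 2.82, above the upper quartile of 1.06 among genes of 2001 to 3000 bases. NEDD8, at 3.66, and CUL4A, at 0.21, also lay above the upper quartiles of their length bins, 3.21 and 0.06. CUL3, at -2.29, lay below the lower quartile of its bin, -1.29. The other genes lay within the quartiles of their bins, among them UBE2M, with 1508 bases, at 0.35 and under its bin median of 0.92. The rank correlation of this ratio with that length was -0.745 over the 10 genes and -0.497 over 12195 protein-coding genes of the same libraries, as a description. Over those 12195 genes the median log2 ratio went from 2.41 at up to 1000 bases to -0.93 above 8000 bases. They had a mean of at least 1 CPM in the 7 other libraries. Their ratios had 0.5 CPM added to both terms, which those given for the 10 genes did not. The part of length in the NEDD8 value of vehicle replicate 3 was not tested.

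**Figure D3:**
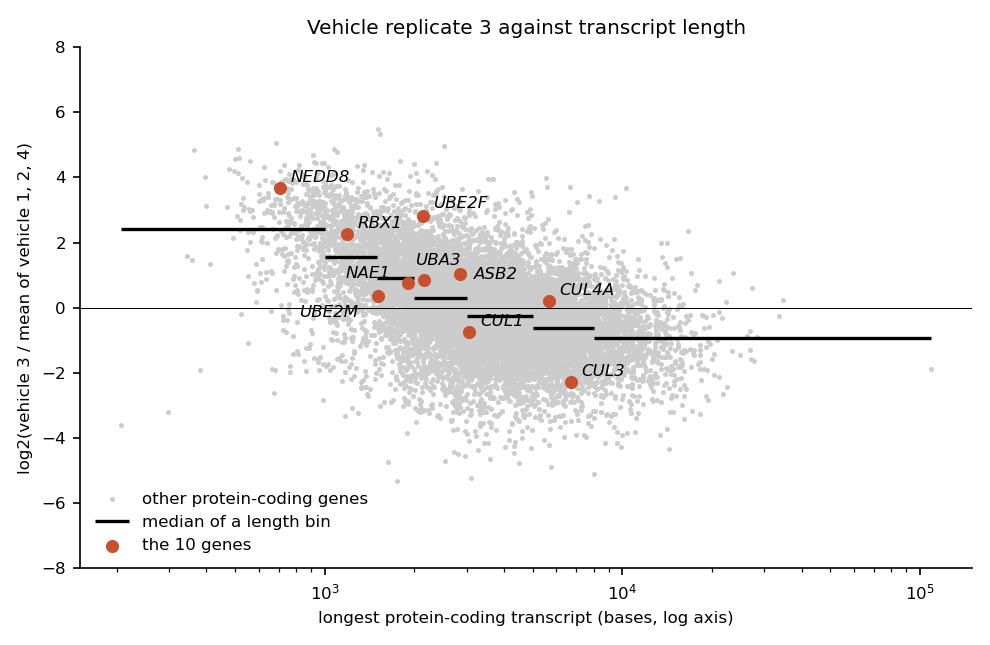
Log2 ratio of vehicle replicate 3 to the mean of vehicle replicates 1, 2 and 4 against the length of the longest protein-coding transcript (bases, log axis), with other protein-coding genes in grey, the 10 genes in red and black lines at the median of each length bin. NEDD8 and RBX1, with 708 and 1188 bases, lie high, and CUL3, with 6741 bases, lies low, in the direction of the slope of the grey points. NEDD8 and RBX1 lie above the median lines of their bins, and CUL3 lies below that of its bin.

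Without that library, fold changes still followed the GC content of transcripts. The median log2 fold change was 0.15 among genes with up to 35% GC in the longest transcript and -0.53 among those above 70%. UBE2M has 65.65% GC and ASB2 58.83%, and the other 8 genes lie between 37.52% and 44.42%. For NEDD8 and RBX1 the longest transcript, of 2300 and 1871 bases, is not the longest coding one, of 708 and 1188 bases. Their GC values and corrections rest on the former. With the trend taken out, the log2 fold change of NEDD8 was 0.42 ± 0.06 (SE), that of UBA3 0.14 ± 0.04, that of NAE1 0.12 ± 0.05 and that of RBX1 0.14 ± 0.05. CUL1 was at 0.09 ± 0.04, UBE2F at 0.08 ± 0.10 and CUL4A at -0.02 ± 0.04. CUL3 became -0.15 ± 0.04, and ASB2 was at -0.92 ± 0.10. Thus NEDD8 and ASB2 kept most of their size, the small differences of NAE1, UBA3, UBE2F, RBX1 and CUL1 shrank, those of UBE2M and CUL4A turned, and that of CUL3 grew.

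On the corrected scale ASB2 gave 12.5, 10.9 and 11.5 CPM in vehicle replicates 1, 2 and 4 and 6.27, 6.03, 6.58 and 6.03 CPM with c-di-GMP. NEDD8 gave 29.2, 26.8 and 26.1 CPM and 36.0, 35.7, 36.2 and 37.8 CPM. UBE2M gave 143, 166 and 154 CPM and 180.0, 176, 170.1 and 181 CPM, and CUL3 gave 92.6, 85.5 and 89.2 CPM and 79.3, 81.0, 80.9 and 81.0 CPM. None of these 4 genes, nor UBA3 and RBX1, overlapped between the groups on this scale, where 23.6% of all genes were separated. NAE1 and CUL1, separated without the correction, overlapped with it, while CUL3 was separated only with it. Whether the GC trend came with the treatment or with the handling of the libraries was not tested.

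**Figure D4:**
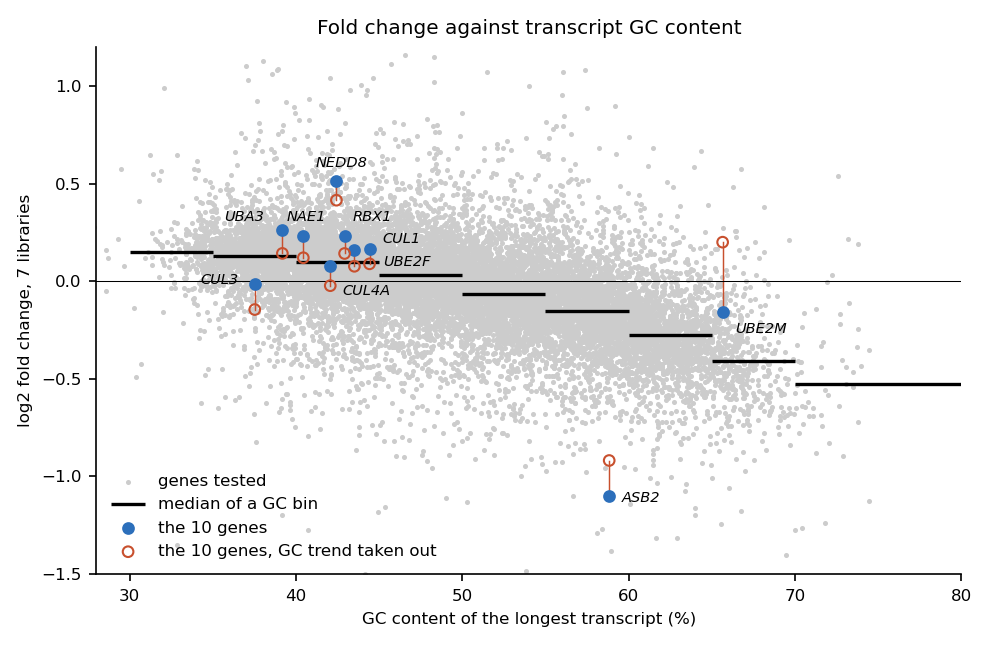
Log2 fold change over 7 libraries against the GC content of the longest transcript (%), with 15643 tested genes in grey (22 lie outside the axes), black lines at the median of each GC bin, and the 10 genes before (filled) and after (open) the GC trend was taken out. The medians fall from 0.15 to -0.53, UBE2M passes from below 0 to above it, and ASB2 stays near -1 at both.

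Genes whose level over the 8 libraries ran most like that of NEDD8 were ATP5MG, a subunit of ATP synthase, GGCT, an enzyme of glutathione turnover, and CYTOR, a long noncoding RNA. Likeness was the mean absolute difference of centred log2 CPM, which was 0.0796 for ATP5MG, 0.0887 for GGCT and 0.0893 for CYTOR against a median of 0.754 over 14085 genes. All 3 had their highest value in vehicle replicate 3, at 375, 214 and 573 CPM, and that library weighs most in the measure. ATP5MG gave 29.4, 30.2 and 29.3 CPM in vehicle replicates 1, 2 and 4 and 37.0, 36.9, 39.4 and 38.4 CPM with c-di-GMP.

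Nearest to ASB2 were COL16A1, a collagen, JUND, an AP-1 transcription factor, and IL24, a cytokine, with differences of 0.161, 0.165 and 0.166 against a median of 0.679. IL24 gave 9.99, 8.72, 31.6 and 10.7 CPM in vehicle replicates 1 to 4 and 6.03, 4.98, 5.71 and 4.83 CPM with c-di-GMP. JUND gave 218, 173, 618 and 196 CPM and 116, 106, 110 and 107 CPM. Each of these genes had its highest level in vehicle replicate 3 and its lowest levels with c-di-GMP. The GC correction took the 7-library log2 fold change of JUND from -0.84 ± 0.06 (SE) to -0.36 ± 0.03 and that of IL24 from -0.87 ± 0.11 to -0.90 ± 0.11.

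The rest of the pathway was read from lists of 213 tested genes, chosen by role but with earlier results of these data known. The shares called and the values of single genes therefore describe these lists and are no test of them. Without vehicle replicate 3, edgeR called 41 of them higher and 21 lower, or 29.1% where 29.6% of all genes were called. With the GC trend taken out 22 were higher and 13 lower, or 16.4% where the background was 15.2%, and 19 genes were called both before and after, each in the same direction both times. Over 8 libraries edgeR called 0 of them, as among all genes, of which 960 stood at an unadjusted p under 0.05. The median log2 fold change was 0.04 with 7 libraries, 0.02 with the GC trend taken out and -0.03 with 8. The pathway at large was called at about the share of all genes.

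**Figure D5:**
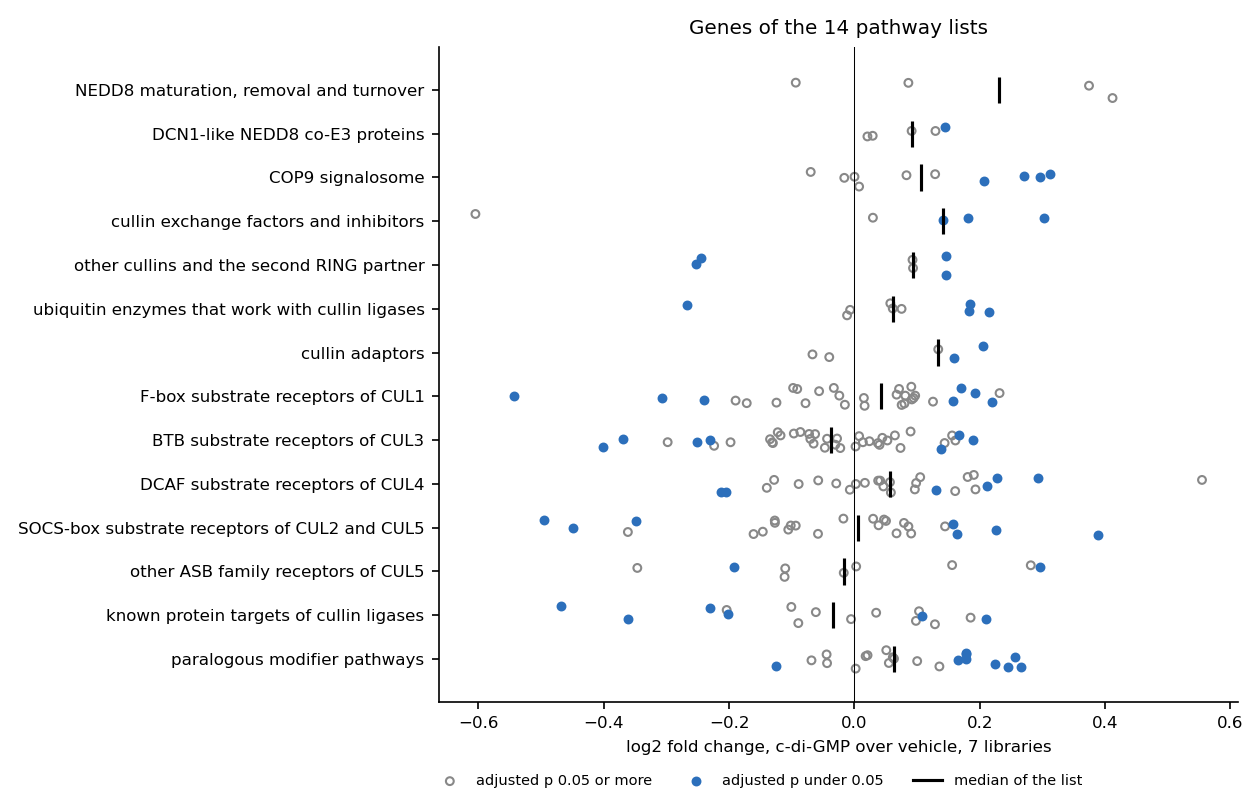
Log2 fold change of c-di-GMP over vehicle in 7 libraries for every tested gene of the 14 lists, 1 row a list, with filled points for genes past an edgeR adjusted p of 0.05 and a black line at the median of the list. Called genes stand on both sides of 0 in 9 of the lists, and 4 of the 10 COP9 signalosome genes were called, all higher.

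Subunits of the COP9 signalosome, which removes NEDD8 from cullins, were called higher for 4 of 10 and lower for none both before the GC correction, where 29.6% of all genes were called, and after it, where 15.2% were, and their median stood at 0.11 before and 0.09 after it (log2 fold change). COPS3 rose from 89.2 ± 6.37 to 108 ± 3.04 CPM (SD, n = 3 and 4), a log2 fold change of 0.27 ± 0.05 (SE, edgeR adjusted p = 0.000177). COPS2 rose by 0.30 ± 0.05 on the same scale (edgeR adjusted p = 0.000141). COPS9, the smallest subunit, rose by a log2 fold change of 0.31 ± 0.08 (edgeR adjusted p = 0.00299) and was at 296 CPM in vehicle replicate 3 against 16.6 ± 0.552 CPM (SD, n = 3) in the other vehicle libraries. These 3 were called both times. COPS8 was called only before the correction and GPS1 only after it, when it went from -0.07 to 0.24 (log2 fold change), and both are named after their values were seen. With 8 libraries the median log2 fold change of this list was -0.33, so that its direction too turned with vehicle replicate 3.

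Genes of NEDD8 maturation, removal and turnover gave no call among 4 genes, before or after the GC correction. SENP8, the protease that trims the NEDD8 precursor, was at 2.28 ± 0.329 and 2.97 ± 0.525 CPM (SD, n = 3 and 4), a log2 fold change of 0.37 ± 0.19 (SE, edgeR adjusted p = 0.140). Of 5 DCN1-like proteins, which help to place NEDD8 on cullins, DCUN1D4 was called higher at a log2 fold change of 0.14 ± 0.05 (edgeR adjusted p = 0.0453) and was at 0.0063 with the GC trend taken out. Of 5 exchange factors and inhibitors, GLMN, CAND1 and FBXO5 were called higher without the GC correction and none with it. CAND1, which swaps substrate receptors on cullins, went from 150 ± 4.07 to 166 ± 4.90 CPM (edgeR adjusted p = 0.0132).

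Among the other cullins and RNF7, 2 of 6 were called higher and 2 lower, and none after the GC correction. That was 66.7% before and 0.0% after it, where 29.6% and 15.2% of all genes were called. CUL7 and CUL9, both atypical cullins, had log2 fold changes of -0.24 ± 0.05 and -0.25 ± 0.05 (edgeR adjusted p = 0.000262 for CUL7 and 0.000281 for CUL9), and CUL4B, the close relative of CUL4A, rose by 0.15 ± 0.04 (edgeR adjusted p = 0.00890). Of 9 ubiquitin enzymes that work with cullin ligases, 3 were called higher and 1 lower, or 44.4% where 29.6% of all genes were called. After the GC correction 11.1% were called, where 15.2% of all genes were. UBE2L3 rose by a log2 fold change of 0.21 ± 0.05 (edgeR adjusted p = 0.00148) and was at 0.29 ± 0.04 with the GC trend taken out, as 1 of 9 then called. Without the correction UBE2D3 rose by a log2 fold change of 0.18 ± 0.04 (edgeR adjusted p = 0.00214), a call lost with it (edgeR adjusted p = 0.255), and CDC34, at -0.27 ± 0.05 (edgeR adjusted p = 0.000557), turned to 0.10 ± 0.04 with the correction.

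Of 5 adaptors that join receptors to cullins, 2 were called higher, and 3 with the GC trend taken out. These shares, 40.0% and 60.0%, rest on few genes. Of all genes 29.6% and 15.2% were called. SKP1, which joins F-box proteins to CUL1, rose from 141 ± 4.24 to 162 ± 6.49 CPM (edgeR adjusted p = 0.000970), and ELOC, elongin C of the CUL2 and CUL5 ligases, from 41.8 ± 2.66 to 46.8 ± 2.15 CPM (edgeR adjusted p = 0.0424). SKP1 was no longer called with the GC trend taken out (edgeR adjusted p = 0.0589). ELOC was, beside ELOB and DDA1, named after their values were seen, and DDA1 had turned from -0.07 to 0.12 (log2 fold change). In vehicle replicate 3 SKP1 and ELOC were at 1495 and 173 CPM. The log2 fold change of SKP1 turned to -1.56 over all 8 libraries.

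Without the GC correction, substrate receptors were called in both directions in each family, and their values here are log2 fold changes with SE. Among F-box receptors of CUL1, 4 of 30 were called higher and 3 lower, led by FBXO46 at -0.54 ± 0.07 (edgeR adjusted p = 7.96e-06), FBXW5 at -0.31 ± 0.05 and FBXO28 at 0.19 ± 0.05. FBXW5 was at 0.080 with the GC trend taken out. BTB receptors of CUL3 gave 3 higher and 4 lower of 40, with KLHL17 at -0.40 ± 0.06 (edgeR adjusted p = 1.93e-05), KLHL25 at -0.37 ± 0.11 and KLHL36 at -0.23 ± 0.05. DCAF receptors of CUL4 gave 4 higher and 2 lower of 27, with DCAF13 at 0.29 ± 0.05 (edgeR adjusted p = 0.000250), DCAF6 at 0.23 ± 0.05 and WDTC1 at -0.21 ± 0.05. These shares, 23.3%, 17.5% and 22.2%, were under the 29.6% of all genes. With the GC trend taken out, 0 F-box receptors were higher and 2 lower (6.67%), 0 BTB receptors were higher and 5 lower (12.5%), and 4 DCAF receptors were higher and 1 lower (18.5%), where 15.2% of all genes were called. Each of these shares rests on few genes, and nothing is read from them.

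SOCS-box receptors of CUL2 and CUL5 other than the ASB family gave 4 higher and 3 lower of 26, with LRR1 at a log2 fold change of 0.39 ± 0.07 (edgeR adjusted p = 0.000183), RAB40C at -0.50 ± 0.09 and ZER1 at -0.35 ± 0.06. With the GC trend taken out 2 were higher and 2 lower, and RAB40C was no longer called (edgeR adjusted p = 0.155). The shares called were 26.9% before and 15.4% after that correction, where 29.6% and 15.2% of all genes were called. Among the other ASB proteins, 9 of the 17 sought were listed, 1 was called higher and 1 lower. ASB9 rose from 9.12 ± 0.0551 to 11.2 ± 0.988 CPM (edgeR adjusted p = 0.0219), and ASB13 fell from 27.4 ± 0.463 to 24.0 ± 1.04 CPM (edgeR adjusted p = 0.0235). Neither was called after the GC correction. The share of these ASB genes called was 22.2% before and 0.0% after it, beside the same shares of all genes. The median log2 fold change of these 9 was -0.02, beside -1.10 for ASB2.

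Known protein targets of cullin ligases gave 2 higher and 4 lower of 16, and 2 higher and 3 lower with the GC trend taken out. These shares were 37.5% and 31.25%, where 29.6% and 15.2% of all genes were called. FLNC and FLNA, filamins that cross-link actin and that ASB2 is known to target as proteins, were among those lower in transcript. FLNC fell from 511 ± 57.7 to 371 ± 15.8 CPM (SD, n = 3 and 4), a log2 fold change of -0.47 ± 0.05 (SE, edgeR adjusted p = 1.19e-06), and was at -0.20 ± 0.04 with the GC trend taken out (edgeR adjusted p = 0.000942). FLNA fell from 3630 ± 349 to 2833 ± 115 CPM (edgeR adjusted p = 1.41e-05) and was no longer called after that correction, at -0.09 ± 0.04 (edgeR adjusted p = 0.0950). Vehicle replicate 3 held 124 CPM of FLNC and 940 CPM of FLNA, both under every other library. RHOA, a GTPase turned over by a CUL3 ligase, rose from 500 ± 13.0 to 579 ± 20.4 CPM (edgeR adjusted p = 0.000453).

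Pathways of other ubiquitin-like modifiers gave 8 higher and 1 lower of 21, or 42.9% where 29.6% of all genes were called, and 6 higher and 0 lower after the GC correction, or 28.6% where 15.2% were. SUMO2 rose from 197 ± 15.8 to 237 ± 6.53 CPM (SD, n = 3 and 4), a log2 fold change of 0.27 ± 0.05 (SE, edgeR adjusted p = 0.000161). SUMO3 rose by 0.18 ± 0.04 on that scale (edgeR adjusted p = 0.00213). With the GC trend taken out, the log2 fold changes of SUMO2 and SUMO3 were 0.19 and 0.20. The log2 fold change of NEDD8, 0.51, was larger than either of these, a difference between genes that was not tested.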

How the data were processed

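Counts per gene and FPKM values were made and deposited by the authors for 16383 genes each, with the deposited gene length in bases as another column. The submitters' processing notes name the aligner HISAT2 2.0.5 and the counter featureCounts 1.5.0-p3, beside CASAVA 1.8, fastp and DESeq2 1.20.0. They also name the mm10 build, but all 16383 identifiers are human and have their GENCODE 29 positions on GRCh38. Neither the strand setting nor the order of steps is given in the sources used here.

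From the counts, genes kept by filterByExpr (minimum count 10, total 15) were TMM-scaled and tested by quasi-likelihood (edgeR 4.0.16, R 4.3.3) for the effect of treatment alone, and called at a Benjamini-Hochberg adjusted p under 0.05. This was done for all 8 libraries, for the 7 without vehicle replicate 3, and for those 7 with a lowess trend (span 0.3) of each library on transcript GC content as an offset. Standard errors came from the F statistic. Alternatives used DESeq2 1.42.0, limma 3.58.1, log2(FPKM + 1), other scalings and filters, and each library left out. The fits were also run on simulated counts with known changes. That simulation held no GC trend and no library like vehicle replicate 3, so it bears on neither. A count of 3, the floor, was 0.166 to 0.186 CPM before TMM scaling, for counting error only. After TMM scaling it is higher in vehicle replicate 3, whose factor was 0.664.

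Members and lists were chosen with earlier results of these data known. Named were the 10 genes, listed genes overlapping them, up to 3 called genes of smallest p in each list (the smallest p where none passed), and the 3 genes most like NEDD8 and ASB2 with a mean of at least 1 CPM. Adjusted p-values cover all genes tested. Some genes that this rule names are not reported here.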

Additional observations from a re-analysis of the deposited data

Results flagged for a closer look

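A library far from the others of its group of 4, by Dixon's test at 95%, was found in 15 of 36 groups (18 genes, 2 groups each). Chance gives such a mark in about 1 of 20 independent groups. These groups share the same 8 libraries, so nothing is read from the count of marks against that rate. In 14 of the 15 the library was vehicle replicate 3.

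Vehicle replicate 3 was the highest of its group for NEDD8 at 313 CPM, UBA3 at 122 CPM, UBE2M at 214 CPM, UBE2F at 63.7 CPM and RBX1 at 194 CPM. It was the lowest for CUL3 at 16.3 CPM. It was also highest for 2 genes overlapping the set on the opposite strand, GMPR2 at 73.8 CPM and PCID2 at 66.0 CPM. The same held for the genes nearest in pattern to NEDD8, with ATP5MG at 375 CPM, GGCT at 214 CPM and CYTOR at 573 CPM, and to ASB2, with COL16A1 at 17.1 CPM, JUND at 618 CPM and IL24 at 31.6 CPM. Those 6 genes were picked on all 8 libraries, so their marks follow from the choice. The remaining mark was c-di-GMP replicate 4 for NEDD8, at 36.9 CPM against 34.8 to 35.0 CPM in the other 3, a difference small beside that between the groups.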

How the results depend on the processing

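Calls over all 8 libraries went from 0 with edgeR to 106 with DESeq2, 5430 with library quality weights and 4633 without vehicle replicate 3, and leaving out each library gave 0 to 4633. Over the 7 libraries, 4633 calls became 2378 with the GC trend, 2050 with GC and length trends and 1598 with the GC trend and a replicate block, while leaving out each library gave 3440 to 4826. Calls among pathway genes went from 62 to 35, 31 and 23 under these corrections (46 to 69 leaving out a library), and among the 10 genes from 7 to 5, 3 and 4 (6 to 7). With the GC trend taken out, leaving out each library gave 1476 to 2638 genes, 23 to 40 pathway genes and 3 to 7 of the 10. The lowest counts were 1476 genes without vehicle replicate 1, with 3 of the 10, and 1551 genes without vehicle replicate 4, with 23 pathway genes. The split of higher to lower calls, 2106 to 2527, became 1922 to 1616 with log2(FPKM + 1) and 1342 to 1036 with the GC trend.

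The sign turned for UBE2M (0.20 with the GC trend, 0.11 with GC and length, 0.22 with GC and block), CDC34 (0.10, 0.0098 and 0.10), FBXW5 (0.080, 0.048 and 0.091) and, with GC and block, DCUN1D4 (-0.0042). The cause was not tested. Without TMM scaling the median log2 fold change of all genes over 8 libraries moved by 0.13. Against that shift NEDD8 was at -0.93 and ASB2 at -1.19, and UBE2M, at -0.08, was no longer separated between the groups.

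Same-numbered vehicle and c-di-GMP libraries did not deviate together (r across genes 0.0152, -0.0088 and 0.0055 without replicate 3), so the numbers are read as names and not as pairs. A replicate block gave 4093 calls over 7 libraries, 51 pathway genes and the same 7 of the 10, 0 calls over 8 libraries, and 23 pathway genes with the GC trend. ASB2 and UBE2F rest on the fewest reads of the 10.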
